A study of Homo sapiens with 4 samples.

Results

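The genes described here are 48 genes whose proteins fold secretory proteins in the endoplasmic reticulum (ER), form their disulfide bonds, send misfolded ones for degradation, or signal ER stress. They were listed by name, and every array probe carrying 1 of those names was taken, which gave 67 probes for 47 of the 48 genes. A total of 20045 genes had a probe on the array. HERPUD1, a membrane component of the degradation machinery, had no probe with its name in the annotation used and was not analysed here. The genes were divided by role into 15 chaperones and co-chaperones, 10 genes of disulfide bond formation, 10 of ER-associated degradation, 4 stress sensors and signalling factors, and 9 genes of the PERK and ATF4 branch.

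The data came from 4 Illumina HumanHT-12 v4 bead arrays of HepG2, an established line of human liver cancer cells. On 2 arrays the RNA was from cells given an siRNA against the zinc finger gene PATZ1 (siPATZ1), and on 2 from cells given a scrambled siRNA (siCTRL). Both groups were reverse-transfected with 60 pmol of siRNA and harvested after 48 h, so the siRNA sequence was the only difference the labels give. Whether 2 arrays of the same treatment stand for independent cultures is not stated, and the p-values therefore speak only of variation among these 4 arrays, possibly technical.

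Proteins entering the ER are bound by the HSP70 chaperone BiP and by the lectin chaperones calnexin and calreticulin, and protein disulfide isomerases pair their cysteines. When unfolded proteins accumulate, 3 sensors in the ER membrane respond. ATF6 is cut to release a transcription factor, IRE1 (the ERN1 protein) splices the XBP1 mRNA, and PERK (the EIF2AK3 protein) phosphorylates the initiation factor eIF2alpha, which lowers general translation while favouring that of ATF4. ATF6 and XBP1 are known for inducing chaperone and degradation genes, and ATF4 for inducing CHOP (the DDIT3 protein) and genes of amino acid metabolism. Liver cells secrete large amounts of protein and hold an extensive ER, which was not measured in the cells used here.

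The promoter sequences of the genes show the elements through which this response is known to act. RefSeq promoter windows (build GRCh38.p14) of 250 bases before and 50 after each gene's start were listed for 44 of the 48 genes, the exceptions being DERL1, DERL3, FKBP14 and PDIA3. Both strands were searched for the ER stress element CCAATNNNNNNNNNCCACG, whose first box is known to bind NF-Y and whose last box is known to bind ATF6. It was found in 8 of the 44 windows (18.2%) and in 25 of 27305 windows of all genes (0.0916%). The 9 matches are shown with 5 bases on either side, written 5′ to 3′ on the strand that reads CCAAT first, with the 2 boxes in capitals, so that the 9 bases between the boxes can be compared.
CRELD2, chr22:49918549-49918577, minus strand: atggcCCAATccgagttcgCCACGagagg
HSP90B1, chr12:103930211-103930239, plus strand: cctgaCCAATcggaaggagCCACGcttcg
HSP90B1, chr12:103930316-103930344, minus strand: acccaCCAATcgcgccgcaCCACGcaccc
CALR, chr19:12938379-12938407, minus strand: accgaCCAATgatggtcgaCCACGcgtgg
CANX, chr5:179698773-179698801, plus strand: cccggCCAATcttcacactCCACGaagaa
HSPA5, chr9:125241386-125241414, minus strand: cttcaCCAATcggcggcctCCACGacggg
PDIA6, chr2:10812848-10812876, minus strand: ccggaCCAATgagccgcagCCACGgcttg
XBP1, chr22:28800598-28800626, minus strand: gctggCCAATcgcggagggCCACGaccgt
ERO1B, chr1:236282178-236282206, plus strand: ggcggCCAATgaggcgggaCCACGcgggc

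The boxes are identical by construction of the search, while the 9 bases between them differed from gene to gene. The nearest base of the element lay 34 bases before the start in XBP1, 48 in HSPA5, 62 in CRELD2, 68 in PDIA6, 71 and 176 in HSP90B1, 133 in CANX, 207 in CALR and 225 in ERO1B. The shorter ER stress element II, searched as ATTGGNCCACG, was found in 3 of 44 windows (6.82%), those of HERPUD1, HYOU1 and SDF2L1, and in 0.0696% of windows of all genes. The core of the unfolded protein response element, TGACGTGG, which XBP1 and ATF6 are known to bind, was found in the windows of DNAJC10, HYOU1, TXNDC5 and TXNDC11 (9.09%, against 0.927% of all windows). In HYOU1 this core overlaps 1 of the 2 matches to ER stress element II.

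The 250 bases before the start are shown for 3 chaperone genes with different results on the arrays, each on the strand of its gene and with the matched boxes in capitals. CRELD2 was higher in siPATZ1-treated cells, HSPA5 did not pass the test, and HYOU1 had probes on either side of the threshold. On the strand of CRELD2 the element runs in reverse, so its boxes read CGTGG and ATTGG. The HYOU1 stretch holds 3 matches, of which 2 overlap.
CRELD2, chr22:49918384-49918633, plus strand: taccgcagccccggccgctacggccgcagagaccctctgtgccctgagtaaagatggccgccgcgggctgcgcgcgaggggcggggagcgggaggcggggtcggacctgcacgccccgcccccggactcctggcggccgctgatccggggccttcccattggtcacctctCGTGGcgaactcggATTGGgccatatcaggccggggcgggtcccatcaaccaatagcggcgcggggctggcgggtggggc
HSPA5, chr9:125241344-125241593, minus strand: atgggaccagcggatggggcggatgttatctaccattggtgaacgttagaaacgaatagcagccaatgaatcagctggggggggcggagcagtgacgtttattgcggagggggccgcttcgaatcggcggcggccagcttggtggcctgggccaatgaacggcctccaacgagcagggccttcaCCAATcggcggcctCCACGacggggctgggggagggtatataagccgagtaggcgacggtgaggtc
HYOU1, chr11:119057206-119057455, minus strand: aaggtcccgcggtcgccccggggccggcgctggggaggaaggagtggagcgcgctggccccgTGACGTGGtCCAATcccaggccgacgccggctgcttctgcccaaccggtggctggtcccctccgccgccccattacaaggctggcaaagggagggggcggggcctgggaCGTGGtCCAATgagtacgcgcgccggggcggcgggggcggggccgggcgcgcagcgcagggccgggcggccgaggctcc

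A further pair of motifs was searched because of the branch or the factor under study. The core of the C/EBP-ATF element, TGATGNAA, which ATF4 is known to bind with C/EBP partners, was found in the windows of ASNS, CHAC1 and HERPUD1 (6.82%, against 4.46% of all windows). GGGGAGGTG, which the study treated as a putative PATZ1 site in another promoter, was found in the windows of CRELD1, DDIT4 and OS9 (6.82%, against 2% of all windows). A window without a match lacks only these letters.

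Signal was tested for genes with a probe that was detected on both siPATZ1 or both siCTRL arrays, detection being a p-value under 0.01 against the negative control beads of the array. A gene was represented by the brightest such probe, and values are log2 of the background-corrected, quantile-normalized signal. Differences are siPATZ1 minus siCTRL on this log2 scale, from a limma fit on n = 2 arrays per group, and a gene passed at an adjusted p under 0.05 (Benjamini-Hochberg over 9435 genes). Of the 48 genes 41 were tested, and 40 of them were detected on all 4 arrays. The exception was DNAJC3. Besides HERPUD1, the genes without a test were PDIA3, ERO1B, SEL1L, DERL3, ERN1 and CHAC1, whose probes were not detected on both arrays of either group.

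Before the results, the arrays themselves differed with the groups. The mean signal was 523 and 555 on the siPATZ1 arrays and 503 and 492 on the siCTRL arrays, and 15980 and 15236 probes were detected against 14222 and 14384. PATZ1 transcripts were detected by none of 3 probes on any array, the lowest detection p-value being 0.0649, so these arrays give no check of the knockdown. The study itself reported lower PATZ1 mRNA by qRT-PCR and lower protein by western blot in siPATZ1-treated HepG2 cells. Of 18 hepatocyte markers only ALB (-0.18, adjusted p = 0.582) and FOXA2 (-0.52, adjusted p = 0.0501) were tested, FOXA2 with the siPATZ1 arrays below the siCTRL arrays. AFP, TTR and 12 others had probes, but none detected on both arrays of either group. ALB was dim, with unnormalized signals from 157.5 to 202, where the median of detected probes was 365 to 410. These arrays therefore do not show abundant transcripts for most secreted liver proteins on the list. The reason was not tested. The cells are called HepG2 by the labels, and their identity was not checked here. Of 7 fibroblast and stellate markers 3 were tested, with a summed signal of 1631 and 1737 on the siPATZ1 arrays and 889 and 1124 on the siCTRL arrays, most of it from ACTA2, which passed (0.82, adjusted p = 0.0291). The other fibroblast markers lay in opposite directions with their arrays apart, COL3A1 at 0.46 (adjusted p = 0.074) and COL1A1 at -0.51 (adjusted p = 0.0741), so the list had no common direction. No endothelial marker was tested, and of 6 leukocyte markers only CD68 was, also with the siPATZ1 arrays below (-0.33, adjusted p = 0.131). The part of these differences in the results was not tested.

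Among the 41 genes 9 were higher in siPATZ1-treated cells (22%, where 7.76% of all genes tested were higher), 1 was lower (2.44%, where 6.94% of all genes were lower) and 31 did not pass. Taking both directions, 10 genes passed (24.4%, where 14.7% of all genes did). The genes that were higher were ERO1A, CRELD2, ATF6, HSP90B1, TXNDC12, MANF, CALR, DDIT3 and DNAJC10, and the gene that was lower was FKBP14, by its brightest probe only. The 41 genes were picked with earlier results of these data known, so their shares describe the list and test nothing about the pathway. In the 78 further pathway genes tested, described below, 7.69% were higher and 7.69% lower. The median log2 difference of the 41 genes was 0.10, beside 0.00 for all genes tested. Of the 41 genes 29 lay above 0 and 12 below, where 49.8% of all genes tested lay above 0. In RNA of whole wells, fewer cells expressing a gene and less RNA of it per cell cannot be told apart. Both siPATZ1 arrays lay above both siCTRL arrays for 20 of the 41 genes, where 30.1% of all genes did so, and below them for 7, where 29.9% did. Past 1.4-fold there were 7 genes higher, where 8.64% of all genes were, and 1 lower, where 7.42% were.

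**Figure D1:**
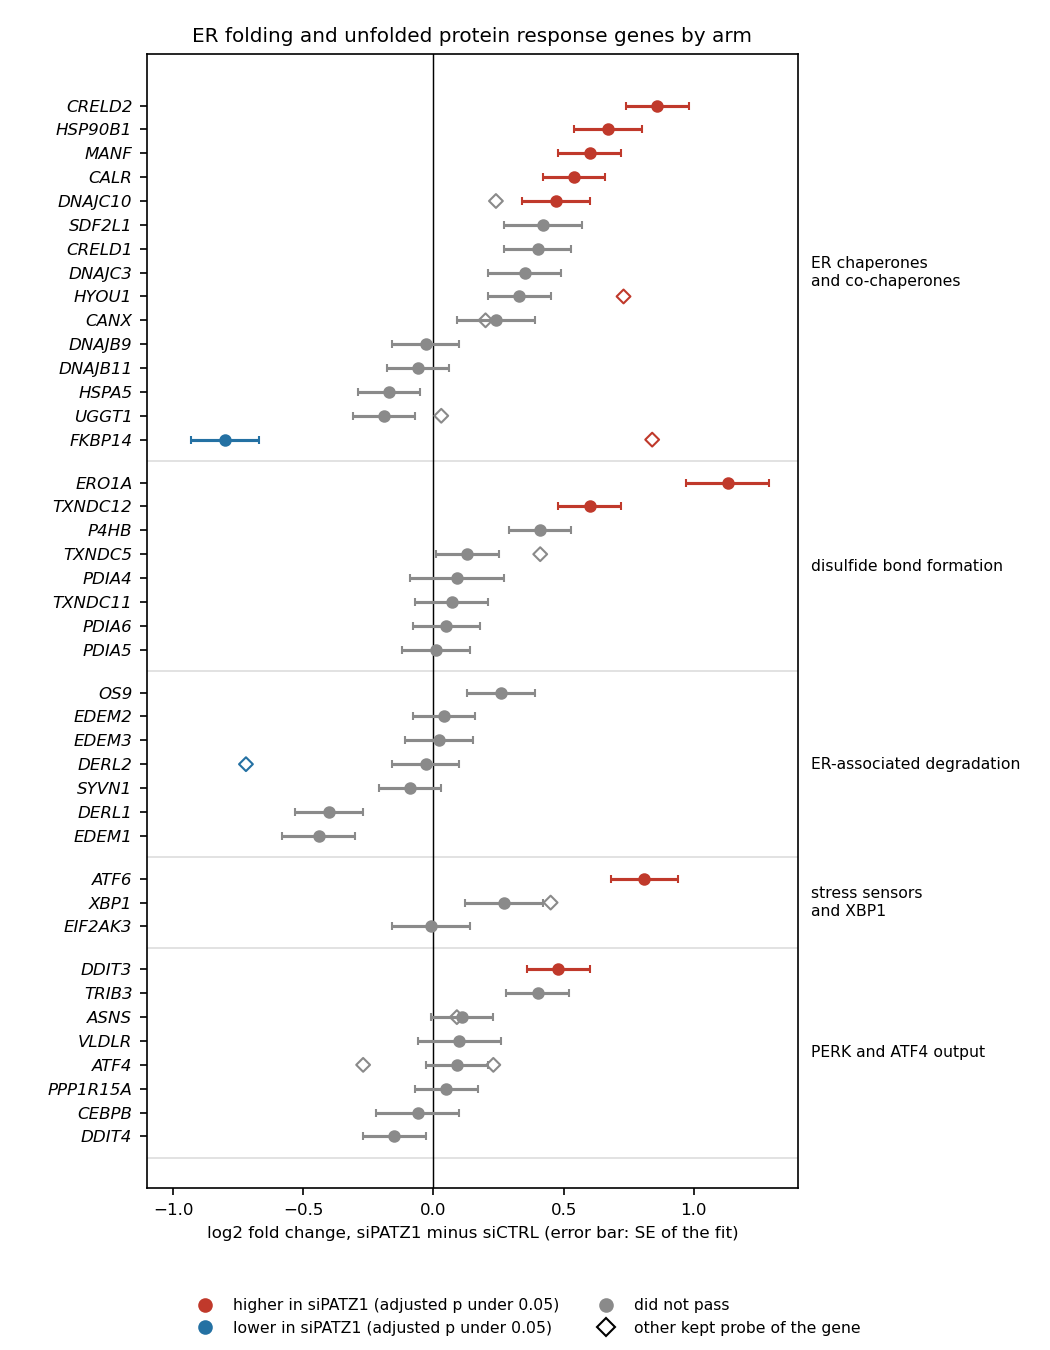
Log2 difference (siPATZ1 minus siCTRL, horizontal axis) of the 41 tested genes, grouped by role, with the SE of the fit as bars and other kept probes of the same gene as open diamonds, coloured by the test over all probes. To the right of 0 lie 10 of 15 chaperones, 8 of 8 disulfide genes and 3 of 7 degradation genes, where 49.8% of all genes tested do. Of the 8 disulfide genes 6 did not pass, most of these close to 0.

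The test rested on both siPATZ1 arrays. Without siPATZ1 array 1 only ERO1A passed, and without siPATZ1 array 2 no gene of the 41 did, while the share of all genes that were higher was then 1.16% and 1.11%. Without siCTRL array 1, 7 genes were higher and 1 lower, where 6.86% of all genes were higher and 5.38% lower. Without siCTRL array 2, 10 were higher and 1 lower, where 10.4% of all genes were higher and 9.61% lower.

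**Figure D2:**
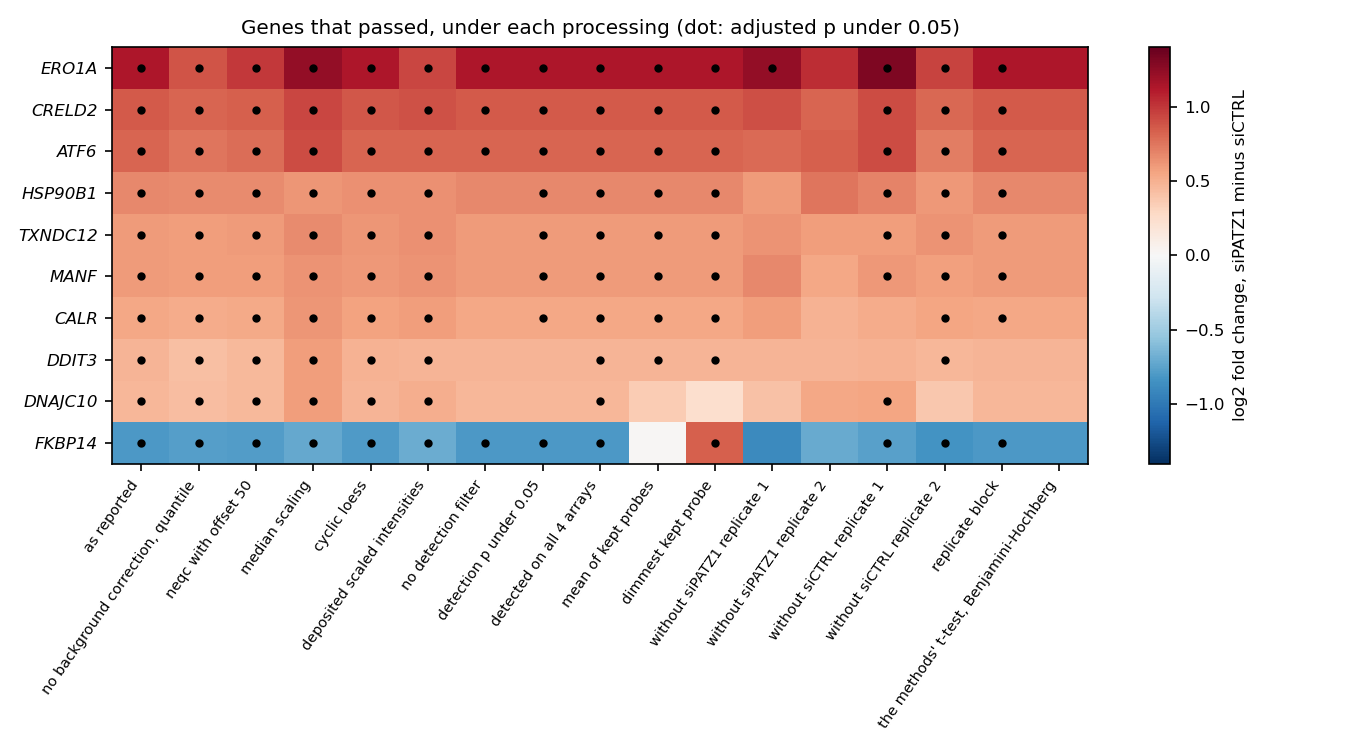
Log2 difference (colour, red for higher in siPATZ1) of the 10 genes that passed, in rows, under each processing, in columns, with a dot where the adjusted p was under 0.05. The colour turned only for FKBP14, and the dots thinned out in the columns without a siPATZ1 array, without the detection filter and for the test named in the methods after Benjamini-Hochberg adjustment.

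The chaperones, the largest group, held the most genes that passed. Of 15 tested, 5 were higher (33.3%, where 7.76% of all genes were) and 1 was lower (6.67%, where 6.94% were). The other 9 did not pass, and the median log2 difference of the 15 was 0.35. CRELD2, an ER protein with EGF-like domains known as an ER stress gene, had 10.88 and 10.94 on the siPATZ1 arrays, against 10.12 and 10.00 on the siCTRL arrays. Both siPATZ1 arrays were clearly above both siCTRL arrays, and the difference was 0.86 (SE 0.12, adjusted p = 0.00685), or 1.81-fold. HSP90B1 encodes GRP94, the HSP90 chaperone of the ER. It had 13.76 and 13.62 on the siPATZ1 arrays, against 13.07 and 12.97 on the siCTRL arrays, without overlap. The difference was 0.67 (SE 0.13, adjusted p = 0.0158).

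MANF, a small secreted ER protein that binds BiP, had 12.16 and 12.29 on the siPATZ1 arrays and 11.66 and 11.60 on the siCTRL arrays. The groups were again apart, by 0.60 (SE 0.12, adjusted p = 0.0208). CALR encodes calreticulin, the soluble lectin chaperone for glycoproteins. It had 11.15 and 11.25 on the siPATZ1 arrays and 10.65 and 10.67 on the siCTRL arrays, a gap several times the spread within either group (0.54, SE 0.12, adjusted p = 0.0265). Without siCTRL array 1 its call was lost. DNAJC10 encodes ERdj5, a co-chaperone that reduces disulfide bonds of degradation substrates. It had 9.98 and 9.85 on the siPATZ1 arrays and 9.54 and 9.36 on the siCTRL arrays. Its groups did not overlap, but it lay at the threshold (0.47, SE 0.13, adjusted p = 0.0499) and passed under 8 of the 17 alternatives that gave a p. Its other probe had 6.74 and 6.44 on the siPATZ1 arrays and 6.11 and 6.60 on the siCTRL arrays, with overlap.

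HSPA5, which encodes BiP and is the best known target of the response, moved in neither direction beyond the threshold. It had 9.61 and 9.56 on the siPATZ1 arrays and 9.79 and 9.72 on the siCTRL arrays, so both siPATZ1 arrays were slightly the lower. The difference was -0.17 (SE 0.12, adjusted p = 0.386), and under the alternatives it stayed between -0.20 and -0.05.

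The other chaperones that did not pass lay on both sides of 0. SDF2L1, a partner of ERdj3, had 11.44 and 11.66 on the siPATZ1 arrays and 11.27 and 11.00 on the siCTRL arrays (0.42, adjusted p = 0.0995). These arrays were apart, with a wide spread in each group. CRELD1, a membrane-bound relative of CRELD2, differed by 0.40 (adjusted p = 0.0787), and CANX, which encodes calnexin, by 0.24 (adjusted p = 0.31). DNAJC3 encodes p58IPK, a co-chaperone and inhibitor of PERK, and was detected on both siPATZ1 arrays and on neither siCTRL array. Against the lowest detected signal this was at least 1.04-fold higher, and it did not pass (adjusted p = 0.126). UGGT1, the glucosyltransferase that returns unfolded glycoproteins to the lectin chaperones, had -0.19, DNAJB11 (ERdj3) had -0.06 and DNAJB9 (ERdj4) had -0.03.

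**Figure D3:**
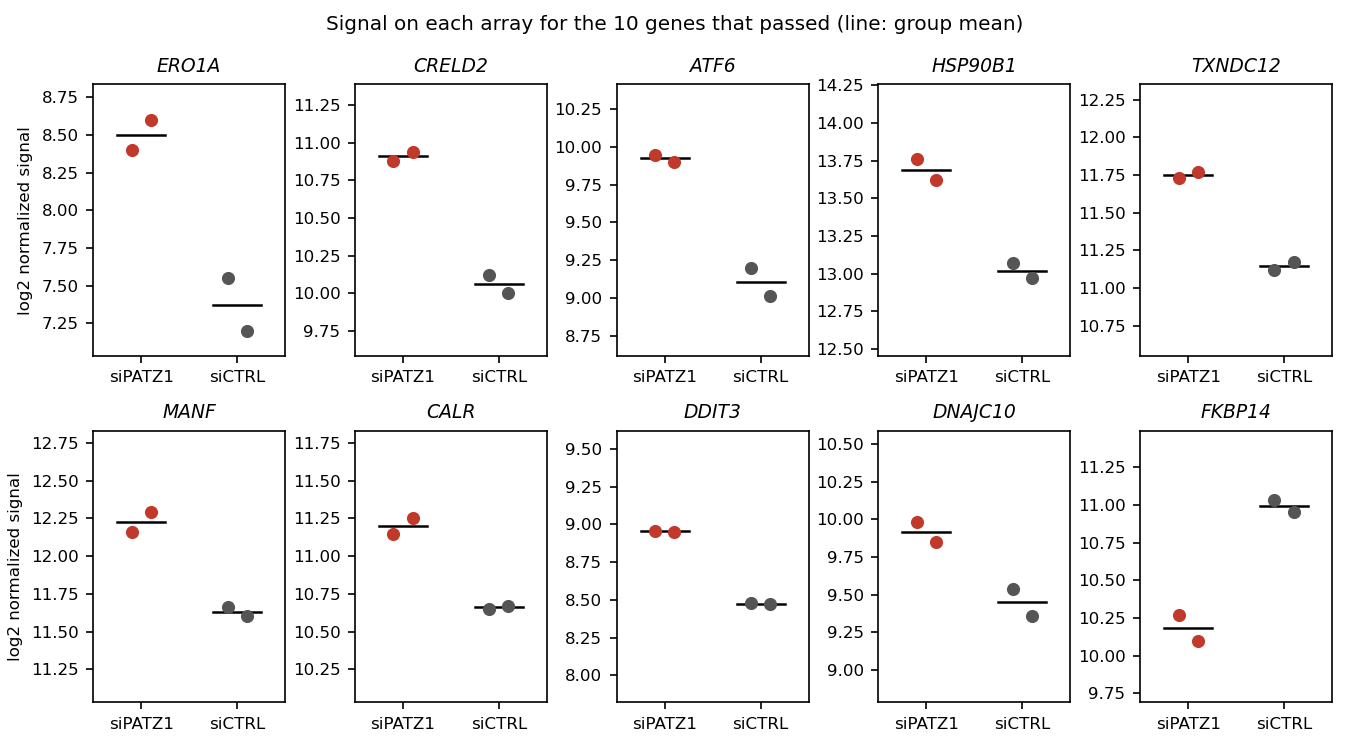
Log2 normalized signal (vertical axis, every panel spanning the same range around its own level) on each array for the 10 genes that passed, with siPATZ1 arrays on the left in red, siCTRL arrays on the right in grey and a line at the group mean. In each panel the 2 groups do not overlap, which is no further support, since the genes were chosen for passing on these arrays. FKBP14 is the only gene with the siPATZ1 arrays below.

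Probes of 1 gene did not always move together. FKBP14 encodes a peptidyl-prolyl isomerase of the ER that acts on collagen. Its brightest probe had 10.27 and 10.10 on the siPATZ1 arrays and 11.03 and 10.95 on the siCTRL arrays, a difference of -0.80 (SE 0.13, adjusted p = 0.009). Its other probe had 7.93 and 7.71 on the siPATZ1 arrays and 6.75 and 7.19 on the siCTRL arrays, a difference of 0.84 (SE 0.18). Both probes were detected on all 4 arrays and in both the groups were apart, in opposite directions. Adjusted over all 15090 kept probes, both passed (adjusted p = 0.0132 and 0.0267), so no direction is given for the gene as a whole.

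Such a split was found in 1 of 10 genes with several kept probes, and in 25 of 2141 genes of the whole array. In 6 of the 10 the probes were less than 0.3 apart. HYOU1 encodes GRP170, the nucleotide exchange factor of BiP. Its brightest probe had 7.85 and 7.95 on the siPATZ1 arrays and 7.61 and 7.53 on the siCTRL arrays, apart but short of the threshold (0.33, adjusted p = 0.108). Its other probe had 7.85 and 7.91 on the siPATZ1 arrays and 7.40 and 6.89 on the siCTRL arrays and passed over all probes (0.73, adjusted p = 0.0409). DERL2, a membrane protein of the degradation machinery, also had 1 probe that passed and 1 that did not. Its brightest probe overlapped between groups (-0.03), while the other had 6.90 and 6.68 on the siPATZ1 arrays and 7.72 and 7.31 on the siCTRL arrays (-0.72, adjusted p = 0.0377 over all probes). Of the 52 kept probes of these genes 10 were higher, where 6.74% of all kept probes were, and 2 were lower, where 5.67% were, and 15 further probes were not kept.

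**Figure D4:**
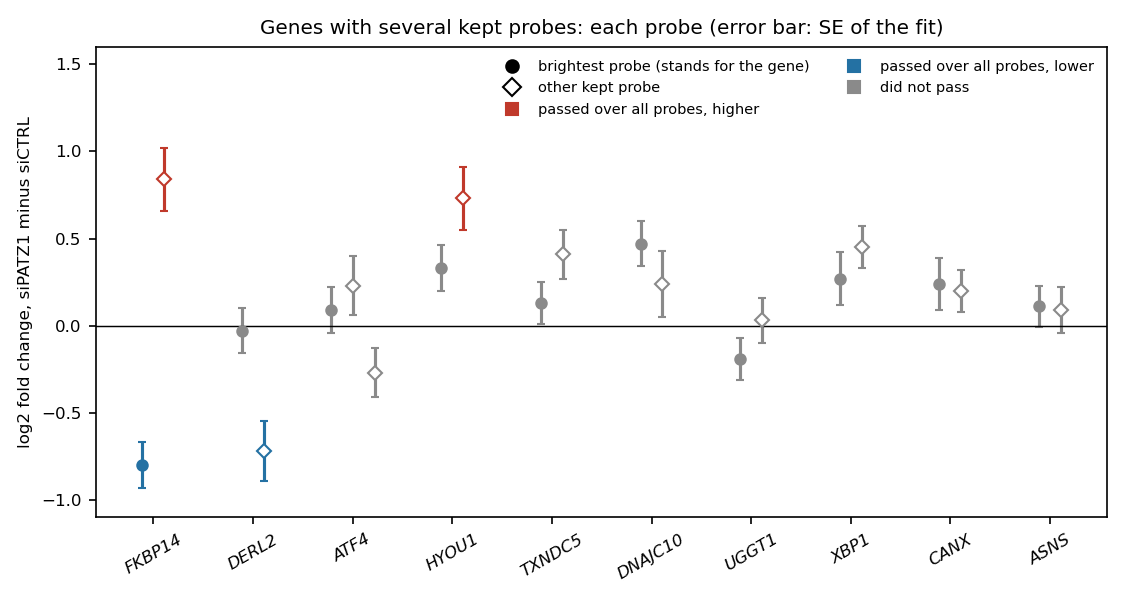
Log2 difference (siPATZ1 minus siCTRL, vertical axis) of each kept probe of the 10 genes with several, with the SE as bars, the brightest probe filled and others open, coloured by the test over all kept probes. The FKBP14 probes stand at -0.80 and 0.84, while those of ASNS and CANX nearly coincide.

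In the disulfide group 8 of 10 genes were tested. Of these 2 were higher (25%, where 7.76% of all genes were), none was lower and the median was 0.11. ERO1A, the oxidase that passes electrons from protein disulfide isomerase to oxygen, had 8.40 and 8.60 on the siPATZ1 arrays and 7.55 and 7.20 on the siCTRL arrays. This was the largest difference among the 41 genes (1.13, SE 0.16, adjusted p = 0.00641), or 2.19-fold, and ERO1A was the only one of them that passed without siPATZ1 array 1. Its paralogue ERO1B was not tested. TXNDC12, an ER thioredoxin known as ERp18, had 11.73 and 11.77 on the siPATZ1 arrays and 11.12 and 11.17 on the siCTRL arrays. Its groups were far apart relative to their spread (0.60, SE 0.12, adjusted p = 0.0182).

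P4HB, which encodes the archetypal protein disulfide isomerase and is also a subunit of collagen prolyl 4-hydroxylase, had 11.86 and 11.97 on the siPATZ1 arrays and 11.52 and 11.51 on the siCTRL arrays. The arrays were apart, but the difference did not pass (0.41, SE 0.12, adjusted p = 0.0618), though it passed under 5 of the 17 alternatives. The 5 further oxidoreductases, TXNDC5 (0.13), PDIA4 (0.09), TXNDC11 (0.07), PDIA6 (0.05) and PDIA5 (0.01), had adjusted p from 0.487 to 0.974. Of these only TXNDC5 had arrays apart. PDIA3 (ERp57), the isomerase that works with calnexin and calreticulin, was not detected on any array.

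No gene of ER-associated degradation passed, where 14.7% of all genes tested did. Of the 7 tested, 2 had an unadjusted p under 0.05, a share near the 31.1% of all genes tested, and the median was -0.03. DERL1, a membrane protein of the channel through which substrates leave the ER, had 9.87 and 9.78 on the siPATZ1 arrays and 10.15 and 10.31 on the siCTRL arrays (-0.40, SE 0.13, adjusted p = 0.0726). EDEM1, which trims mannose from glycoproteins bound for degradation, had 8.31 and 8.02 on the siPATZ1 arrays and 8.54 and 8.68 on the siCTRL arrays (-0.44, SE 0.14, adjusted p = 0.0783). In both genes the siPATZ1 arrays were the lower without overlap. That held for 3 of the 7 genes, where it held for 29.9% of all genes tested. OS9, a lectin that recognises the trimmed glycans, had 6.64 and 6.83 on the siPATZ1 arrays and 6.50 and 6.44 on the siCTRL arrays (0.26, adjusted p = 0.205). The ubiquitin ligase SYVN1 (HRD1) had -0.09, EDEM2 had 0.04 and EDEM3 had 0.02. DERL2 had -0.03 by its brightest probe, while its other probe passed over all probes, as given above (-0.72, adjusted p = 0.0377). SEL1L, the adaptor of SYVN1, and DERL3 were not tested.

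Of the stress sensors ATF6 was higher in siPATZ1-treated cells. It had 9.95 and 9.90 on the siPATZ1 arrays and 9.20 and 9.01 on the siCTRL arrays. The siPATZ1 arrays were nearly equal and well above the others (0.81, SE 0.13, adjusted p = 0.0088), or 1.76-fold. EIF2AK3 had 6.40 and 6.67 on the siPATZ1 arrays and 6.41 and 6.69 on the siCTRL arrays, overlapping almost array for array (-0.01, SE 0.15, adjusted p = 0.968). ERN1 was not detected on any array. XBP1 had 11.69 and 11.81 on the siPATZ1 arrays and 11.33 and 11.64 on the siCTRL arrays, which barely separated the groups (0.27, SE 0.15, adjusted p = 0.259). Its other probe had 11.76 and 11.67 on the siPATZ1 arrays and 11.24 and 11.28 on the siCTRL arrays and stood at the threshold over all probes (0.45, adjusted p = 0.0545). The sources used here do not tie either probe to the spliced or the unspliced form, so splicing by IRE1 was not measured, nor was cleavage of ATF6 or phosphorylation by PERK.

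In the PERK and ATF4 branch 1 of 8 tested genes was higher (12.5%, where 7.76% of all genes were), none was lower, and the median was 0.09. Taking both directions, the share of the branch that passed was near the 14.7% of all genes. DDIT3, which encodes the transcription factor CHOP, had 8.96 and 8.95 on the siPATZ1 arrays and 8.48 and 8.47 on the siCTRL arrays. The arrays of each group were nearly equal (0.48, SE 0.12, adjusted p = 0.0345), and the call was lost without siCTRL array 1 and under 6 other alternatives. ATF4 itself had 13.18 and 13.05 on the siPATZ1 arrays and 13.08 and 12.97 on the siCTRL arrays, with overlap (0.09, SE 0.12, adjusted p = 0.673). Its 3 probes ranged from -0.27 to 0.23, none of them past the threshold. ATF4 is known to be controlled mainly at translation, which these arrays do not measure.

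TRIB3, a pseudokinase induced by ATF4 and CHOP, had 9.75 and 9.80 on the siPATZ1 arrays and 9.35 and 9.40 on the siCTRL arrays. Its groups were well apart, but it did not pass (0.40, SE 0.12, adjusted p = 0.0613), though it passed under 6 of the 17 alternatives. DDIT4, which encodes REDD1, an inhibitor of mTORC1 signalling, had 10.45 and 10.40 on the siPATZ1 arrays and 10.55 and 10.60 on the siCTRL arrays (-0.15, adjusted p = 0.44). The others were ASNS, the asparagine synthetase gene (0.11), VLDLR, a lipoprotein receptor gene (0.10), PPP1R15A, which encodes the eIF2alpha phosphatase subunit GADD34 (0.05), and CEBPB, a C/EBP partner of ATF4 (-0.06). Their adjusted p ran from 0.564 to 0.841, and ASNS was the only one with arrays apart. CHAC1, a glutathione-degrading enzyme gene downstream of ATF4, was not detected.

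The genes were also set beside the promoter elements shown above, as a description without a test. Of the 9 tested genes with either ER stress element 3 were higher (CRELD2, HSP90B1 and CALR) and none was lower, with a median of 0.33. Of the 30 tested genes with a window and neither element 6 were higher, none was lower, and the median was 0.09. Both sets come from the list picked with earlier results known, and among all genes tested 7.76% were higher and 6.94% lower. Within the 7 genes with the longer element the differences ran down to -0.17 in HSPA5. Of the 3 tested genes placed by the unfolded protein response core alone, DNAJC10 passed and TXNDC5 and TXNDC11 did not. ERO1A, ATF6, TXNDC12, MANF and DDIT3 were higher and had none of these 3 elements in the window searched.

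**Figure D5:**
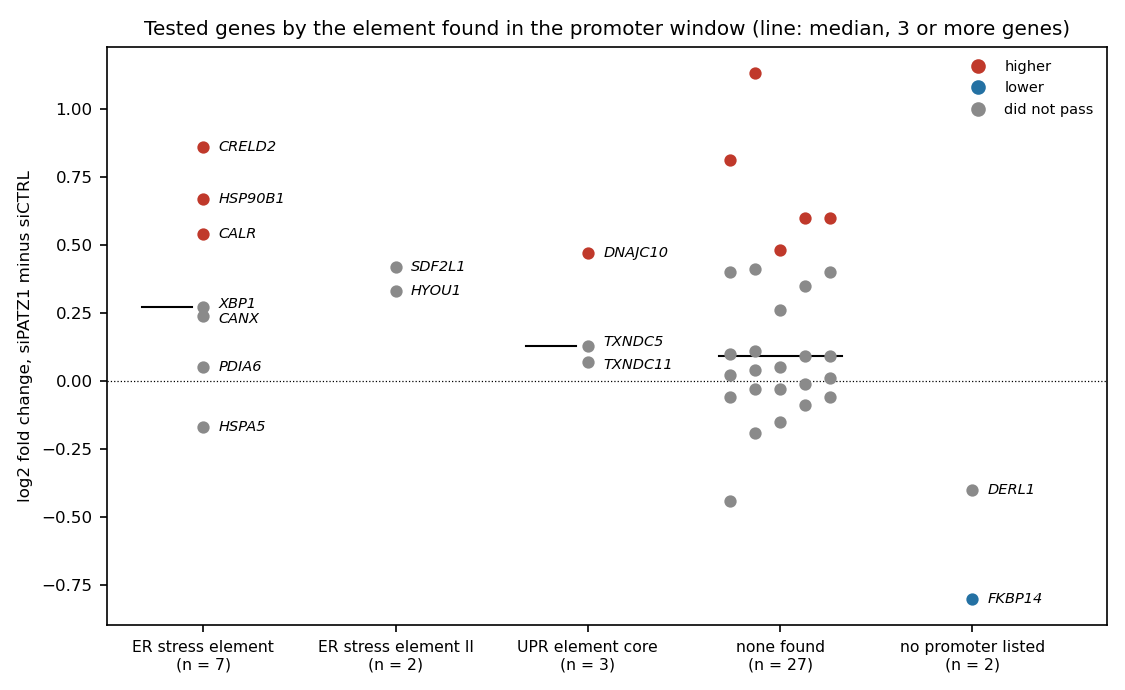
Log2 difference (siPATZ1 minus siCTRL, vertical axis) of the 41 tested genes by the element found in the promoter window, red for higher, blue for lower and grey for genes that did not pass, with a line at the median of groups of 3 or more. HYOU1, which also holds the UPR element core, is drawn under ER stress element II, and genes with and without an element overlap widely, from -0.17 to 0.86 with the ER stress element and from -0.44 to 1.13 with none of the 3.

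A further 97 genes of the same pathway were read from the same fit, and 78 were tested. Of these 6 were higher, 6 were lower and 66 did not pass, with a median of -0.04. Their shares, 7.69% in each direction, were close to those of all genes given above. Among 23 tested genes of ER folding, GANAB, the catalytic subunit gene of glucosidase II, had 10.14 and 10.66 on the siPATZ1 arrays and 9.07 and 9.09 on the siCTRL arrays. The siPATZ1 arrays differed from each other and were both far above the siCTRL arrays (1.32, SE 0.18, adjusted p = 0.00587). TMX1, a transmembrane thioredoxin, had 10.65 and 10.42 on the siPATZ1 arrays and 11.14 and 11.04 on the siCTRL arrays, and was lower (-0.56, adjusted p = 0.0332). UGGT2, the second glucosyltransferase gene, was also lower (-0.47, adjusted p = 0.0373), and SIL1, an exchange factor of BiP chosen here after its values were seen, was higher (0.47, adjusted p = 0.0374).

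None of the 20 further degradation genes tested passed, where 14.7% of all genes did. Of the 20 genes 4 had an unadjusted p under 0.05, a smaller share than the 31.1% of all genes. The smallest adjusted p among them were those of UBXN8, which tethers the ATPase p97 at the ER (-0.45, adjusted p = 0.0551), the ubiquitin ligase MARCHF6 (-0.45, adjusted p = 0.0724) and the ubiquitin-conjugating enzyme UBE2J2 (-0.38, adjusted p = 0.0915). In all 3 the siPATZ1 arrays were the lower, without overlap. That held for 7 of the 20 genes, where it held for 29.9% of all genes tested. The 20 genes had a median of -0.10, with 6 above 0 and 14 below, where 49.8% of all genes tested lay above 0.

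Of 13 other stress signalling genes tested 2 were higher and 2 lower. This was 15.4% in each direction, where 7.76% of all genes were higher and 6.94% lower. EIF2S1 encodes eIF2alpha, the subunit that PERK phosphorylates. It had 7.93 and 8.04 on the siPATZ1 arrays and 9.11 and 9.22 on the siCTRL arrays, the smallest adjusted p of the whole set of pathway genes (-1.18, SE 0.12, adjusted p = 0.00279). It passed without each of the 4 arrays, at differences from -1.23 to -1.13. EIF2AK4, which encodes GCN2, the eIF2alpha kinase for amino acid shortage, had 9.24 and 9.26 on the siPATZ1 arrays and 9.95 and 9.85 on the siCTRL arrays, and was lower (-0.65, adjusted p = 0.0153). BAX, a pore-forming death protein gene, had 10.17 and 10.33 on the siPATZ1 arrays and 9.18 and 9.61 on the siCTRL arrays (0.85, adjusted p = 0.0171), while its dimmer kept probe stood at -0.21. The other gene that was higher was CREB3L2, an ATF6-like membrane transcription factor (0.57, adjusted p = 0.0217), named after its values were seen.

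Of 22 other ATF4 target genes tested 2 were higher and 2 lower. This was 9.09% in each direction, near the 7.76% and 6.94% of all genes. GDF15, a stress-induced cytokine gene, was detected on both siCTRL arrays and on neither siPATZ1 array, and was lower in siPATZ1-treated cells by at least 1.58-fold (adjusted p = 0.0088). CTH, the cystathionine gamma-lyase gene, had 7.42 and 7.18 on the siPATZ1 arrays and 6.75 and 6.65 on the siCTRL arrays (0.59, adjusted p = 0.0275). ALDH18A1, of proline synthesis, had 10.62 and 10.60 on the siPATZ1 arrays and 9.90 and 10.17 on the siCTRL arrays (0.57, adjusted p = 0.032). In both the groups were apart with siPATZ1 above. STC2, a secreted glycoprotein gene named after its values were seen, was lower (-0.48, adjusted p = 0.0347).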

How the data were processed

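RNA of siPATZ1- and siCTRL-treated HepG2 cells was measured on 4 arrays, grouped by the labels. The authors deposited the bead intensity of 47323 probes on a linear scale, with neither background subtraction nor normalization, and a detection p-value for each, and the submitters' processing notes name GenomeStudio. A second deposited table of intensity, scaled by 0.991 and 0.934 (siPATZ1 arrays) and 1.03 and 1.05 (siCTRL arrays), was used as an alternative. The study's background correction was not given in the sources used here. Array number limits the precision.

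The unscaled table was normalized by neqc in limma 3.58.1, run in R 4.3.3 (normexp from detection p-values, offset 16, quantile normalization, log2). The normalization sets the arrays to a common distribution, so a shift shared by all genes is not seen. Probes were named from the platform annotation, updated through RefSeq: 30112 had 1 gene, 8 several and 17203 none. Probes detected on both siPATZ1 or both siCTRL arrays were kept (15090 probes, 9435 genes). lmFit and eBayes were used with 2 residual and 5.73 prior degrees of freedom, tested on simulated data. A gene undetected in a group is given by a bound against the lowest signal among detected probes. Genes named are those that passed, the 3 with the smallest p in each group or list, 9 core genes of the response and genes with opposed probes. Others are given by value or count. The members and lists were chosen with earlier results of these data known. The alternatives were other background corrections, normalizations, detection filters, rules for the probe of a gene, tests and call rules, leaving out each array, and a replicate block. No protein sequences were used here.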

Additional observations from a re-analysis of the deposited data

How the results depend on the processing

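The counts of genes that passed were recomputed under 18 alternatives. Without 1 array, genes higher ranged from 0 to 10 and genes lower from 0 to 1, chaperones that passed from 0 to 7, disulfide genes from 0 to 2, sensors from 0 to 1, genes of the PERK and ATF4 branch from 0 to 1, probes higher from 0 to 7 and lower from 0 to 2, and other pathway genes higher from 1 to 10 and lower from 1 to 6. The lowest of these came without a siPATZ1 array, and for the PERK and ATF4 branch also without siCTRL array 1. Each fit without 1 array had fewer arrays, and the lone array of its group was assumed to vary like the others. Why the result depended on the array left out was not tested. With the methods' t-test and Benjamini-Hochberg adjustment, 0 genes, 0 probes and 0 other pathway genes passed in either direction, and 1 of 9435 genes did. At an unadjusted p of at most 0.05 that test gave 12 genes higher and 3 lower, 1 degradation gene, 2 genes of the PERK and ATF4 branch, and 10 other pathway genes higher and 9 lower, where 9.8% of all genes were higher and 10% lower.

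Without a detection filter, with 20045 genes tested, 3 genes were higher, and 2 chaperones, 1 disulfide gene and 0 genes of the PERK and ATF4 branch passed. In this setting 0 probes passed in either direction, and 1 other pathway gene was higher and 2 lower. Of all genes only 0.948% were then higher and 0.733% lower. At a detection p-value under 0.05, 0 genes of the PERK and ATF4 branch passed, 5 probes were higher and 1 lower, and 3 other pathway genes were lower. Of all genes 5.16% were then higher and 4.61% lower. Without background correction 3 genes were lower, 2 degradation genes and 2 of the PERK and ATF4 branch passed, and 11 other pathway genes were lower. Of all genes 9.43% were then higher and 9.13% lower. With an offset of 50, 2 genes were lower, and 1 degradation gene and 2 of the PERK and ATF4 branch passed, where 9.01% of all genes were higher and 8.49% lower. Median scaling, cyclic loess and the scaled intensities each gave 2 genes of the PERK and ATF4 branch. Median scaling gave 1 probe lower and 3 other pathway genes lower, where 12.1% of all genes were higher and 4.78% lower. The scaled intensities gave 11 other pathway genes higher, where 12% of all genes were higher and 6.78% lower. With cyclic loess 8.32% of all genes were higher and 7.01% lower. The 1.4-fold threshold alone gave 0 genes of the PERK and ATF4 branch, where 8.64% of all genes were higher and 7.42% lower. Median scaling and the scaled intensities moved the share of higher genes among all that passed to 71.7% and 63.8%, against 52.8%. Median scaling also moved the median of all genes by 0.09. Relative to that median the 41 genes stood at 0.11, against 0.10 as reported.

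FKBP14 turned to 0.02 (adjusted p = 0.937) with the mean of its probes, which left 0 genes lower, and to 0.84 (adjusted p = 0.0214) with the dimmest, and BAX turned to -0.21 with its dimmest probe. With the mean of probes 7.13% of all genes were lower. The dimmest probe gave 1 degradation gene that passed, DERL2. The cause of these changes was not tested beyond the differing probes given in the report.

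The deviations of arrays with the same number had a correlation of -0.03, so the numbers were not taken as pairs. With the replicate block 7 genes were higher and 1 lower, 0 of them in the PERK and ATF4 branch, where DDIT3 was lost, as was DNAJC10. Of all genes 6.17% were then higher and 5.16% lower. For single genes and settings, 796 values kept their direction and side of the threshold, 88 no longer passed, 33 newly passed, 3 reversed, and 32 without a call moved.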
